A study of Mus musculus with 13 samples.

Results

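The 8 genes described here, Cdkn2a, Cdkn2b, Cdkn2c, Cdkn1a, Cdkn1b, Trp53, Mdm2 and Ccng1, encode inhibitors of the cell cycle and components of the p53 axis, and were taken by symbol from the 32285 genes measured in mouse mammary fibroblasts. They were chosen with earlier results of these data known, so their levels in tumours, where these had been seen before, are given as descriptions. The study profiled stromal cells in 13 single-cell RNA libraries of 9 groups. Puberty (4 weeks), adult (9 weeks), pregnancy (day 14.5), lactation (day 10) and involution (day 4) had 1 library each, made from 2 wildtype C57BL/6 females by sorting for Lineage–CD24– cells. The same strain and sort gave 2 placebo and 2 MPA+E libraries at 9 weeks, from mice that carried pellets of placebo or of medroxyprogesterone acetate with estradiol for 7 days. The raGFP-Wnt1 model (Pdgfra-GFP KI/+ MMTV-Wnt1 T/+) gave 2 hyperplasia and 2 tumour libraries of Lin– GFP+ cells on a mixed C57BL/6 FVB background. In this model the MMTV promoter drives Wnt1 chiefly in the mammary epithelium, and the GFP marks cells that express Pdgfra. All 4 raGFP-Wnt1 libraries carried both alleles, and each number stands for 1 mouse that gave both a hyperplasia and a tumour library, aged 45 weeks for mouse 1 and 17 weeks for mouse 2. Strain, age, sort and genotype all differ between raGFP-Wnt1 and wildtype libraries and cannot be told apart in a comparison of these.

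Fibroblast barcodes were those with 500 to 7500 genes, at most 10% mitochondrial UMIs (unique molecular identifiers, each standing for 1 captured RNA molecule), at least 50 UMIs of Dcn, Lum and Col1a2 per 10000, and no UMI of the epithelial gene Epcam, the endothelial gene Pecam1, the pericyte gene Rgs5, the glial gene Sox10, the leukocyte gene Ptprc or the muscle gene Myog. This left 100523 of 120355 barcodes, with 4236 to 11951 fibroblasts and 47521842 to 102522735 UMIs per library. Levels are given as CPM, the UMIs of a gene scaled to a common total over all UMIs of a library's fibroblasts, and counting intervals are exact Poisson or conditional intervals at 95% that cover counting error only. The 5 fibroblast markers summed to 10327 CPM or more in every library. Of the markers of other cells, the epithelial sum reached 59.8 CPM at most and was lowest in tumours (1.78 to 4.11 CPM). The sum of 5 immune markers was 8.28 to 16.5 CPM in tumours, 7.50 to 8.85 in hyperplasia and 1.54 to 5.11 in wildtype libraries, so that it rose from hyperplasia to tumour in mouse 1 (7.50 to 16.5 CPM) but not in mouse 2 (8.85 to 8.28). In puberty and adult, hyperplasia and tumours in turn, the 4 endothelial markers summed to 23.0 and 27.2, 5.49 and 12.7, and 2.93 and 3.63 CPM. The 3 Schwann cell markers summed to 50.5 and 15.9, 15.01 and 21.5, and 9.21 and 1.81 CPM, and the fibroblast markers to 41140 and 16321, 13297 and 10327, and 30472 and 31220 CPM. The part of these shifts in the differences between these groups was not tested. Any pair of libraries shared between 3 and 34 barcode sequences, at most 0.503% of the smaller library.

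Entry into the cell cycle depends on cyclin-dependent kinases. The INK4 proteins p16INK4a (Cdkn2a), p15INK4b (Cdkn2b) and p18INK4c (Cdkn2c) bind CDK4 and CDK6, and p21 (Cdkn1a) and p27 (Cdkn1b) of the Cip/Kip family inhibit cyclin-kinase complexes more broadly. p53 (Trp53) is a transcription factor held at low protein levels by the ubiquitin ligase MDM2, and Cdkn1a, Mdm2 and cyclin G1 (Ccng1) are among its best known target genes. Cdkn2a also encodes p19ARF, which binds MDM2 and thereby joins both arms. In fibroblasts, p16INK4a, p19ARF, p15INK4b and p21 are best known for their part in senescence, the lasting arrest of stressed cells.

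On GRCm38, Cdkn2a lies at chr4:89274471-89294653 and Cdkn2b at chr4:89306299-89311039, both on the minus strand, with 11645 bases between them. Cdkn2c is on the same chromosome at chr4:109660876-109667189 (minus strand), Cdkn1a at chr17:29090976-29100727 (plus strand) and Cdkn1b at chr6:134920401-134925513 (plus strand). Trp53 is at chr11:69580359-69591873 (plus strand), Ccng1 at chr11:40748552-40755311 (minus strand) and Mdm2 at chr10:117688875-117710758 (minus strand). The annotation gives Cdkn2a 2 transcripts. Their first exons, at 89281986 to 89282192 for p16INK4a and at 89294334 to 89294653 for p19ARF, have start sites 12461 bases apart, and both transcripts share the second exon (89276645 to 89276985) and most of the last. Libraries of this chemistry read the 3′ end of transcripts, so a Cdkn2a UMI cannot be assigned to p16INK4a or to p19ARF. Cdkn1a overlaps an annotated transcript of undetermined kind on the opposite strand, AC167363.2, and no other member overlaps a gene.

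RefSeq start sites (GRCm38.p6) were found for 8 of 8 members, in 11 windows of 250 bases before a start. Windows are shown for the 3 starts that held a searched motif, those of the p53 targets Cdkn1a and Ccng1 and of p19ARF, with the other start of Cdkn2a for comparison. Printed 5′ to 3′ on the gene's strand, the lines end before the first transcribed base in either annotation. Capitals mark a p53 response element (a pair of adjacent half-sites of 10 bases, at most 2 of 20 bases off the consensus) in Cdkn1a and Ccng1, and the E2F-type motif TTTCCCGC in the upstream start of Cdkn2a.
Cdkn1a, upstream start, chr17:29090729-29090975, plus strand: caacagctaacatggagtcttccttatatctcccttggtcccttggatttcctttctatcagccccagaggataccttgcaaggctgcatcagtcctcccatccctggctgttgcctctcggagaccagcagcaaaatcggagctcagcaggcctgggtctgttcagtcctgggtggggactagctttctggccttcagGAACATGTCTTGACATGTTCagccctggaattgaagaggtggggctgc
Ccng1, chr11:40755312-40755536, minus strand: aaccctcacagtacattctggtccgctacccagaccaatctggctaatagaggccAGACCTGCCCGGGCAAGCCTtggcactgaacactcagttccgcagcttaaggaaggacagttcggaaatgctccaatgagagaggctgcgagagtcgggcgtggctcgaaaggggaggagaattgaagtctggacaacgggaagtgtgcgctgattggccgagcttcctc
Cdkn2a, start of p19ARF, chr4:89294654-89294869, minus strand: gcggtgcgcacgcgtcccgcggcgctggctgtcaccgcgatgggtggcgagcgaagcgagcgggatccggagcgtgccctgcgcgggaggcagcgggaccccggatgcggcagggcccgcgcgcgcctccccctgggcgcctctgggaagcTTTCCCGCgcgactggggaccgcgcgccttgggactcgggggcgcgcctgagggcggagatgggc
Cdkn2a, start of p16INK4a, chr4:89282193-89282442, minus strand: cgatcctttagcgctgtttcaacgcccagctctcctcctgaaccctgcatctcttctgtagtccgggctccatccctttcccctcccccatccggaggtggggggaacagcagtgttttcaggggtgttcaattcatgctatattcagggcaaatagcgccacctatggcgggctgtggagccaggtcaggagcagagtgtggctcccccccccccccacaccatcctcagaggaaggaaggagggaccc
The p53 element began 51 bases before the upstream of 2 RefSeq starts of Cdkn1a, whose window is the one shown, and 195 bases before that of Ccng1, each with 1 base off the consensus, and neither the window of the downstream start of Cdkn1a nor one of another member held one. Over 32851 promoter windows of the same length 0.661% held such an element. TTTCCCGC was searched on both strands and was found in no other member window, against 0.895% of all windows, and TTTGGCGC was in none of the member windows, against 0.417%. A match is a match of letters in this window only, and Mdm2, whose known p53-dependent start lies inside the gene, is not covered by it.

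The first question was where in the series each gene was expressed. Cdkn2a was near the detection limit in wildtype fibroblasts and high in tumours. Among the stages it measured 0.123 CPM (puberty), 0.244 (adult), 0.358 (pregnancy), 0.730 (lactation) and 2.95 CPM (involution). The placebo libraries gave 0.677 and 0.818 CPM and the MPA+E libraries 0.414 and 0.757. Hyperplasia reached 5.24 and 4.46 CPM and tumours 110 and 103 CPM. The order was thus tumours, hyperplasia, involution and then all other libraries, with no overlap between these 4 levels, while the remaining wildtype libraries all lay at 0.818 CPM or less and their intervals overlapped in part. Cells were also thinned to 2000 UMIs each, to compare shares of cells with a UMI at equal depth (86 to 1310 shallower fibroblasts per library were left out). At this depth 12.6% and 14.98% of tumour fibroblasts had a Cdkn2a UMI, against 1.16% and 0.931% in hyperplasia, 0.561% in involution and 0.0449% to 0.12% in the other wildtype libraries. Without thinning the tumour shares were 26.9% and 40.2%.

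The other INK4 genes had patterns of their own. Cdkn2b followed Cdkn2a in its order of groups, with 0.985, 1.58, 2.38, 2.98 and 7.89 CPM from puberty to involution in the order above, 4.88 and 3.36 CPM with placebo pellets and 2.67 and 2.46 with hormone pellets. It measured 9.68 and 10.9 CPM in hyperplasia and 70.7 and 104 CPM in tumours. Tumours and hyperplasia lay above all wildtype libraries without overlap, with involution the nearest below hyperplasia. Cdkn2c ranged from 10.4 CPM in the adult to 25.4 in lactation, 21.1 in involution and 25.6 in tumour 2. Tumour 1 (19.9 CPM), MPA+E (21.6 and 17.7) and pregnancy (17.1) lay inside that range, and so did hyperplasia (15.6 and 14.1), placebo (15.1 and 12.8) and puberty (13.8). Tumours overlapped the wildtype range and lay above hyperplasia. Both MPA+E libraries lay above both placebo libraries, as they did for 20% of 9649 genes with a mean of at least 5 CPM.

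**Figure D1:**
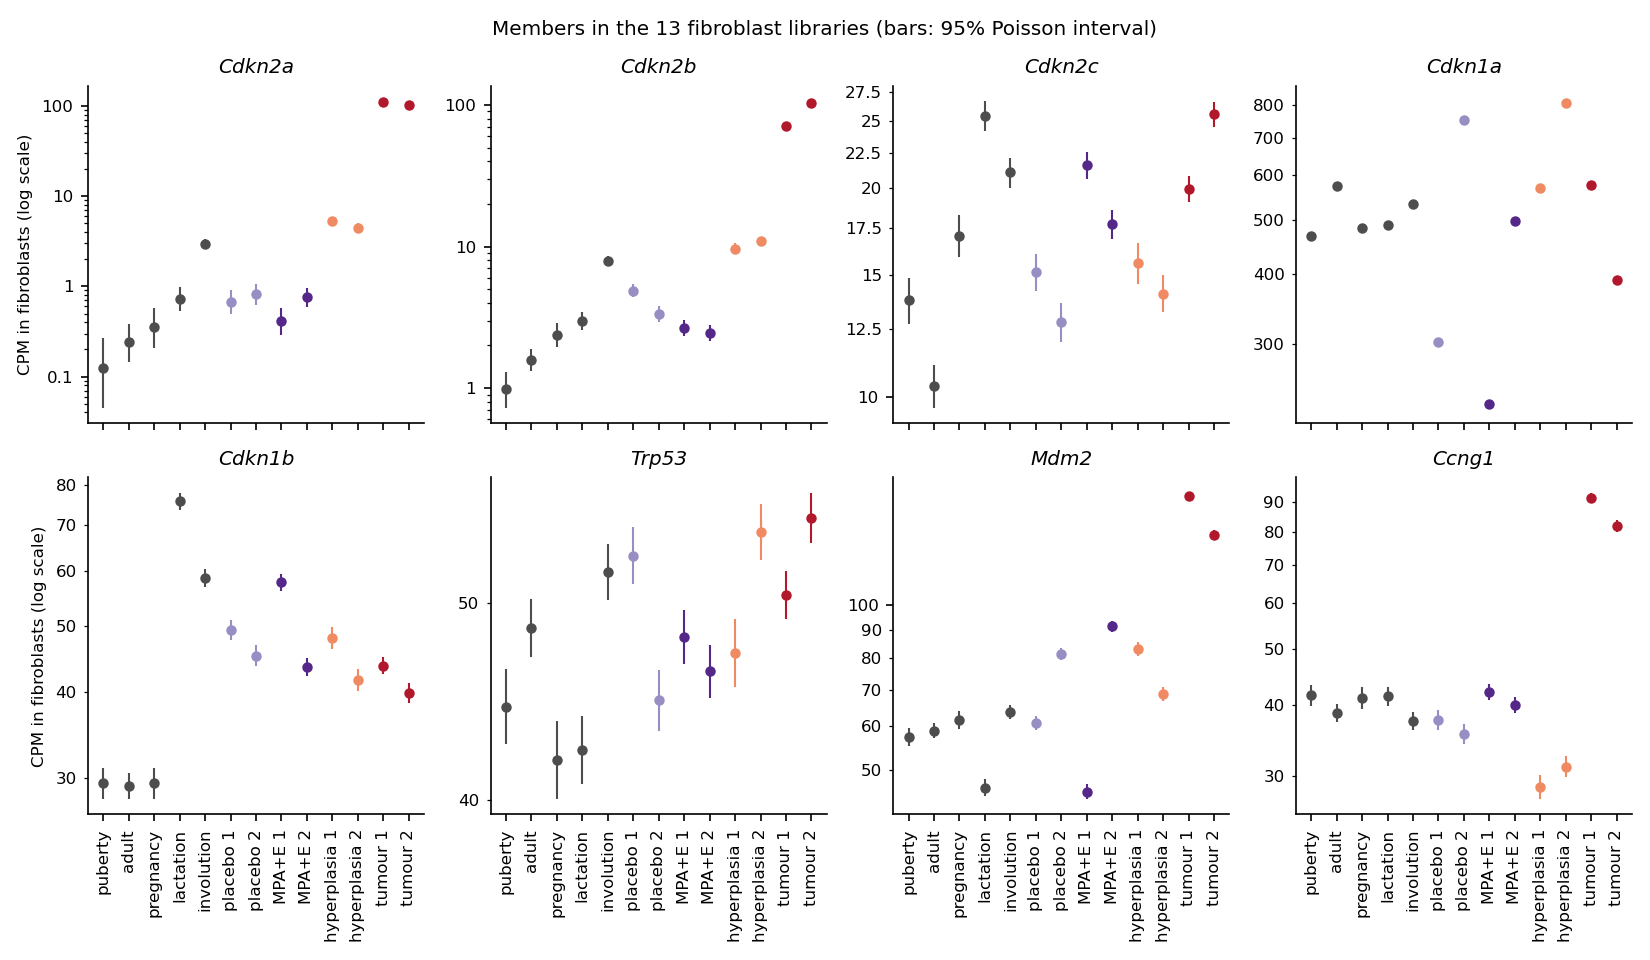
Level of each of the 8 genes in the fibroblasts of the 13 libraries, in CPM on a log axis whose range differs between panels, with 95% Poisson intervals as bars (hidden where smaller than the point). Both tumours (red) lie above the other 11 libraries for Cdkn2a, Cdkn2b, Mdm2 and Ccng1, and hyperplasia (orange) lies lowest for Ccng1.

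Of the Cip/Kip genes, Cdkn1a showed no tumour pattern and a wide spread between libraries of 1 group. It measured 303 and 754 CPM in the placebo libraries, 235 and 498 under MPA+E, 571 and 806 in hyperplasia and 577 and 391 in tumours. The 5 stages lay between 467 CPM in puberty and 573 in the adult. Placebo thus overlapped MPA+E and hyperplasia overlapped tumours, and 26.4% to 66.1% of thinned fibroblasts had a UMI in each library. Cdkn1b was lowest in puberty, adult and pregnancy (29.5, 29.2 and 29.5 CPM), highest in lactation (75.9) and next highest in involution (58.6). All other libraries lay between 39.8 CPM in tumour 2 and 57.8 in MPA+E 1. Although the adult and placebo libraries shared age, strain and sort, the adult was at 29.2 CPM and placebo at 49.3 and 45.2 CPM, so that libraries of wildtype mice of 1 age already differed in Cdkn1b.

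Of the other genes of the p53 axis, Mdm2 and Ccng1 were highest in tumours and Trp53 varied little. Trp53 stayed between 41.9 CPM in pregnancy and 55.1 in tumour 2, with hyperplasia at 47.3 and 54.2 and tumour 1 at 50.4. Mdm2 measured 158 and 135 CPM in tumours, above all other libraries, which ranged from 45.6 in MPA+E 1 to 91.5 in MPA+E 2, with hyperplasia at 83.1 and 68.8. Ccng1 measured 91.7 and 81.9 CPM in tumours, 28.8 and 31.2 in hyperplasia and 35.5 to 42.0 in the 9 wildtype libraries, so that hyperplasia was below and tumours were above every wildtype library. In all, 4 of 8 members had both tumours above the other 11 libraries. The share of 9649 genes with a mean of at least 5 CPM was 14.7%, but nothing is read from it, since tumour levels were known when the members were chosen and Cdkn2a and Cdkn2b reach that mean only through the tumours. Both hyperplasia libraries were above the 9 wildtype libraries for Cdkn2a and Cdkn2b and below them for Ccng1. Among the same 9649 genes 7.43% and 8.80% did so, and the first share does not cover genes as low as Cdkn2a and Cdkn2b outside the tumours.

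The stages were compared to ask how the genes vary through a cycle of gland development. With 1 library per stage no test was possible. Between the highest and the lowest stage, 4 of 8 members differed by at least 2 fold. The background, over 9566 genes with a mean of at least 5 CPM in the stages, was 17.9%, and Cdkn2a and Cdkn2b lay below that level, so that only 2 of the other 6 members can be set against it. The 4 members were Cdkn2a, at 23.9 times in involution against puberty (interval 10.8 to 66.0, on 219 and 6 UMIs), Cdkn2b, at 8.01 times in the same direction (5.96 to 10.98), and Cdkn2c and Cdkn1b, at 2.45 times (2.25 to 2.68) and 2.60 times (2.47 to 2.73) in lactation against the adult. The other members differed by little, with 1.38 times for Mdm2, 1.24 for Trp53, 1.23 for Cdkn1a and 1.11 for Ccng1. Proliferation ran the other way in part, since the cell cycle marker Mki67 was highest in puberty (10.96 CPM) and pregnancy (8.73) and lowest in lactation (0.587).

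Placebo and MPA+E were compared to ask whether 7 days of progestin and estrogen altered these genes. No member passed the test, against 4.33% of all 15642 genes tested (2.69% higher and 1.64% lower, 678 genes in all, edgeR's quasi-likelihood test, Benjamini-Hochberg adjusted). At an unadjusted p under 0.05, 2 of 8 members passed, Cdkn2c and Cdkn2b, against 18.5% of all genes. Cdkn2c was 1.42 times the placebo level (log2 0.50, SE 0.11, adjusted p = 0.086 by edgeR and 0.031 by DESeq2). Both MPA+E libraries were above both placebo libraries for Cdkn2c and Ccng1, as for 20% of 9649 genes with a mean of at least 5 CPM. Both were below for Cdkn2b, against 23.2%, a share that does not cover genes as low as Cdkn2b outside the tumours. Cdkn2b was 0.631 times the placebo level (log2 -0.67, SE 0.19, adjusted p = 0.16 by edgeR). The placebo libraries decided much of the count of all genes, which was 22 without placebo 1 and 42 without placebo 2. Cdkn1a differed by log2 -0.53 with an SE of 0.59 (adjusted p = 0.73 by edgeR). Of 110 genes in 8 related lists 1 rose and 1 fell, fewer than the share of all genes. Serpine2 (27.4 and 30.5 CPM under placebo, 82.1 and 72.3 under MPA+E, adjusted p = 0.010 by edgeR), a secreted protease inhibitor, rose, and Igfbp3 (135 and 181 against 30.1 and 34.2 CPM, adjusted p = 0.012 by edgeR), which binds insulin-like growth factors, fell. The summed markers of other cells also moved in this comparison. The 4 endothelial markers reached 44.0 and 45.9 CPM with hormone pellets (placebo 14.6 and 14.6), the 4 pericyte markers 22.2 and 17.6 (placebo 48.1 and 48.4) and the 5 epithelial markers 5.13 and 4.96 (placebo 29.9 and 27.5), and their part in these values was not tested.

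Hyperplasia, tumour and normal tissue (puberty with adult) were compared in 1 limma-voom fit of 6 libraries to ask how fibroblasts of hyperplastic glands and of tumours differ from those of normal tissue and from each other. Since a hyperplasia library came from the mouse that also bore the tumour, it does not show a state before tumours. From hyperplasia to tumour, Cdkn2a was 22.2 times higher (log2 4.47), Cdkn2b 8.36 times (log2 3.06) and Mdm2 1.93 times (log2 0.95), and Cdkn1a was at 0.702 times (log2 -0.51). These differences were known when the genes were chosen and carry no test. Of the members tested, Ccng1 rose 2.90 times (log2 1.53, SE 0.15, limma adjusted p = 0.0042). Since all members were chosen with tumour levels known, this call is no independent evidence of its rise. Cdkn2c (log2 0.61, SE 0.20, adjusted p = 0.064), Cdkn1b (log2 -0.10, adjusted p = 0.64) and Trp53 (log2 0.06, adjusted p = 0.75) did not pass. Across all 16302 genes 29.3% passed, and 15.4% were higher in tumours, so 1 of 4 tested members is near the background. The total of 4777 genes was 242 without hyperplasia 1 and 314 without hyperplasia 2.

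From normal tissue to hyperplasia, Cdkn2a was 24.8 times higher, which is a description and rests on few UMIs in normal tissue. Cdkn2b rose 7.76 times (log2 2.96, SE 0.34, adjusted p = 0.0097), against 14% of all genes called in either direction, 7.7% higher and 6.29% lower. With any of the normal or hyperplasia libraries left out this call was lost (adjusted p 0.058 to 0.088), and the count of all genes went from 2280 to 8 with puberty left out, to 183 with the adult left out, and to 2 and 1 with hyperplasia 1 and 2 left out in turn. Against all 9 wildtype libraries, an alternative chosen after seeing the data, Cdkn2b was 3.58 times higher (limma adjusted p = 0.027) and Ccng1 was at 0.752 times (log2 -0.41, SE 0.10, adjusted p = 0.033), with a background of 4.99%. Cdkn1b, which was 1.49 times the level of puberty and adult (adjusted p = 0.053), was at 1.00 times that of the 9 wildtype libraries. Mdm2, Cdkn1a, Cdkn2c and Trp53 passed in neither of these fits.

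The other p53 target genes were followed as a list of 30, all of which were tested. From hyperplasia to tumour 15 rose, against 15.4% of all genes, and 1 fell, against 13.9%, with a median of log2 0.76 against -0.01 over all genes. The genes with the largest rise were Gtse1 (0.159 and 0.0828 CPM in hyperplasia, 2.79 and 4.01 in tumours, log2 4.79), Psrc1 (0.779 and 0.828 against 12.9 and 14.8 CPM, log2 4.09), Pmaip1 (1.63 and 2.15 against 16.2 and 16.7 CPM, log2 3.12) and Ckap2 (1.91 and 1.24 against 8.69 and 13.1 CPM, log2 2.81). Pmaip1 encodes the apoptosis inducer NOXA, whereas Gtse1, Psrc1 and Ckap2 act on microtubules and the mitotic spindle. Without cells that held a Mki67 or Top2a UMI, the count was again 15. Rrm2b, a ribonucleotide reductase subunit used in DNA repair, fell (22.8 and 22.8 against 16.2 and 13.4 CPM, log2 -0.62). Adjusted p was 0.0070, 0.0042, 0.0019, 0.013 and 0.035 for these 5 genes by limma. The target genes Ddb2, Sesn1, Xpc and Btg2 had values below 0 without passing. With hyperplasia 1 left out 2 genes of the list rose, and with hyperplasia 2 left out 5 did. From normal tissue to hyperplasia 1 gene of this list rose, against 7.7% of all genes, and 2 fell, against 6.29%, so that both counts were near or below the background. The study had named the p53 pathway among genes higher in these tumours, so the list is no independent evidence of its direction.

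**Figure D2:**
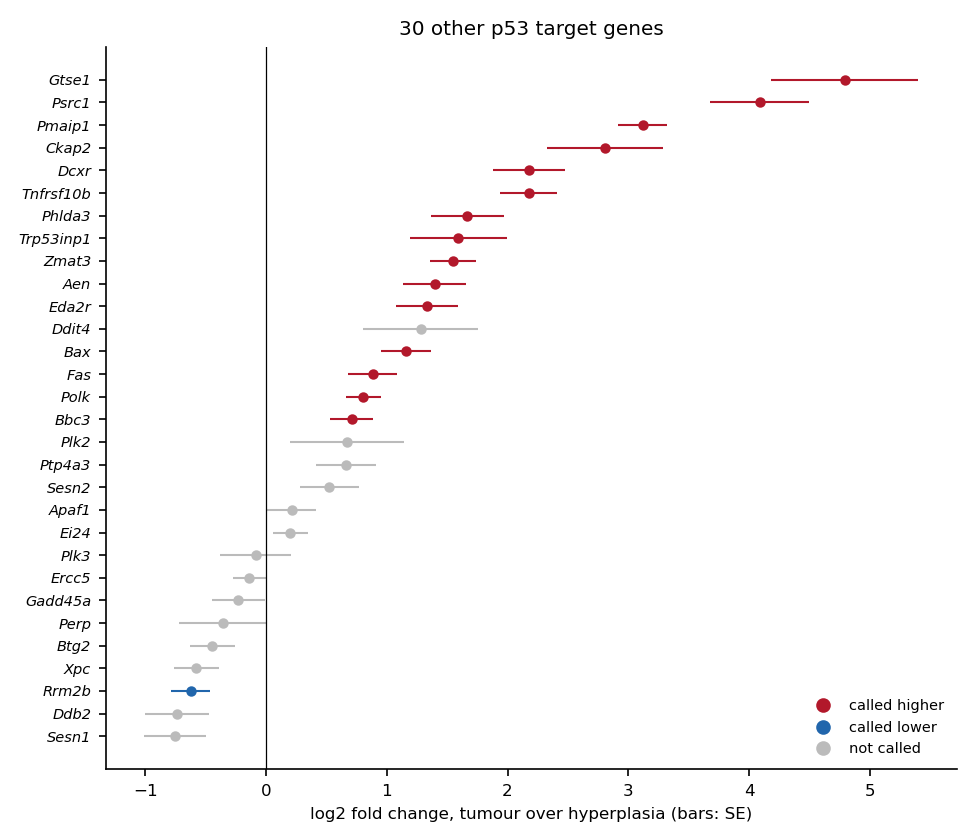
Log2 difference between tumour and hyperplasia, with its standard error, for each of 30 p53 target genes from limma-voom, where red (higher) and blue (lower) points passed at an adjusted p of 0.05 and grey points did not. On the right side of 0 lie 15 called genes and on the left 1, Rrm2b.

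Of 14 p53 regulators 1 rose from hyperplasia to tumour and 2 fell, near or below the shares of all genes (15.4% and 13.9%). Chek2, a kinase that acts on p53 after DNA damage, rose (2.67 and 2.26 to 3.86 and 5.78 CPM, log2 0.94, limma adjusted p = 0.040). The deacetylase gene Sirt1 (104 and 88.6 to 23.0 and 19.2 CPM, log2 -2.20) and Ppm1d (18.2 and 17.9 to 10.6 and 9.72 CPM, log2 -0.83), which encodes a phosphatase that turns off p53 signalling, fell, and both had risen from normal tissue to hyperplasia. Of 13 Polycomb and other repressors of the Ink4 locus, 5 rose and 1 fell from normal tissue to hyperplasia (7.7% and 6.29% of all genes), and 3 fell and none rose from hyperplasia to tumour (13.9% and 15.4% of all genes). Cbx7, a Polycomb subunit that represses Cdkn2a, rose in hyperplasia (2.91 and 4.36 CPM in puberty and adult, 14.6 and 14.3 in hyperplasia, log2 1.94) and fell in tumours (4.76 and 2.18 CPM, log2 -2.14, limma adjusted p = 0.012). With each of the 4 normal and hyperplasia libraries left out in turn, no repressor was called from normal tissue to hyperplasia, and of the p53 regulators only Sirt1, without the adult (Cbx7 at limma adjusted p between 0.11 and 0.18), and without hyperplasia 1 or 2 none was called from hyperplasia to tumour either (Cbx7 at most 0.084). Of the p53 regulators only Sirt1 was called in tumours without either hyperplasia library. Jarid2 and Suz12 fell in tumours by 0.65 and 0.53 on the log2 scale. Both tumours thus had Cbx7 inside the range of the wildtype libraries or below it.

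Of 13 cyclins, kinases and E2F factors on which the inhibitors act, 8 rose from hyperplasia to tumour and none fell, where 15.4% of all genes rose and 13.9% fell. These shares are also the background of the other lists below. Cdk6, the kinase held by the INK4 proteins, rose from 7.56 and 7.37 CPM to 28.4 and 36.3 CPM (log2 2.11, limma adjusted p = 0.0026), and it had risen from 3.28 and 2.90 CPM in normal tissue to hyperplasia (log2 1.25, adjusted p = 0.026). Cdk1, the kinase of mitosis, Ccna2 and Ccne2 rose by more (log2 7.01, 4.83 and 2.16), from below 1 CPM in hyperplasia. Of 12 proliferation genes 11 rose and Pcna fell (log2 -0.63). Of the 6 other inhibitors and pocket proteins, Cdkn3 and Cdkn2d rose (log2 4.35 and 0.81) and Cdkn1c, which encodes p57, fell (127 and 108 to 73.3 and 39.4 CPM, log2 -1.12, limma adjusted p = 0.038). Of 16 genes linked with senescence, 6 rose and 1 fell from normal tissue to hyperplasia (7.7% and 6.29% of all genes), with a median of log2 0.90. Those calls depended on which libraries were present. From hyperplasia to tumour 8 of the 16 rose and none fell, with a median of log2 0.89. The list also held Lmnb1, Hmgb1 and Hmgb2, which are linked with senescence through their loss, so these counts give no direction of senescence. With each raGFP-Wnt1 library left out in turn, Lmnb1 was at log2 0.32 to 0.90, Hmgb1 at 0.15 to 0.83 and Hmgb2 at 0.36 to 1.15. The list held Lrrc15, Wnt9a and Cxcl14, which the study had named for fibroblasts of these tumours and which are no independent evidence. Without them 5 of 13 rose, among them Serpine2 (64.4 and 67.5 to 547 and 979 CPM) and Igfbp3 (182 and 109 to 920 and 629 CPM). Lrrc15, a membrane protein known from tumour myofibroblasts, went from 12.7 and 8.95 to 278 and 382 CPM, and the Wnt ligand Wnt9a from 8.04 and 8.84 to 42.9 and 44.5 CPM. Of 6 contractile genes 5 rose, led by Acta2 (0.761 and 2.07 to 228 and 698 CPM) and Tagln (3.17 and 3.44 to 448 and 1117 CPM), which mark myofibroblasts, a cell state that the study had described in these tumours. Acta2 was higher in wildtype puberty (45.7 CPM), adult (17.8) and pregnancy (219) than in hyperplasia. Without hyperplasia 1 and hyperplasia 2 in turn, 1 and 1 of the cyclins and kinases rose, 6 and 5 of the senescence-linked genes, 2 and 2 of the contractile genes, and none of the proliferation genes or other inhibitors. Cdk6, Serpine2, Lrrc15, Wnt9a and Tagln passed in tumours with any of the 4 raGFP-Wnt1 libraries left out (highest limma adjusted p 0.042 for Cdk6), while the rise of Cdk6 in hyperplasia was lost without each of the 4 libraries (adjusted p 0.11 to 0.17).

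Whether the inhibitors were expressed in cycling cells was asked by splitting the fibroblasts of each library by a UMI of Mki67, a nuclear protein of cycling cells. The 9 wildtype libraries held 26 to 141 such cells each and 583 in all, and the tumours 360 and 438. Both hyperplasia libraries held fewer than 20 and were left out, so the fit compared 11 libraries, with the library as a block. Cdkn2c rose in Mki67-positive cells by log2 2.24 (SE 0.21, adjusted p = 1.4e-08 by edgeR) and Trp53 by log2 0.26 (SE 0.08, adjusted p = 0.010). Cdkn1a (log2 -0.71), Mdm2 (log2 -0.40), Ccng1 (log2 -0.53), Cdkn2b (log2 -1.25) and Cdkn2a (log2 -1.52) fell, with adjusted p by edgeR of 0.00082, 0.0029, 0.00033, 0.00045 and 0.0097. Wildtype libraries did not share the fall of Cdkn2a and Cdkn2b, which stood at log2 1.99 and 0.10 there in the fit by tissue given below. Cdkn1b did not pass (log2 -0.05, adjusted p = 0.82). The call of Cdkn2a was lost without tumour 1 (log2 -0.59, adjusted p = 0.54 by edgeR) or tumour 2 (log2 -0.91, adjusted p = 0.33), and that of Cdkn2b without tumour 2 (log2 -0.77, adjusted p = 0.070). Thus 2 of 8 members were higher, against 14.3% of 13557 genes, and 5 lower, against 23.3%, with a median of -0.11 over all genes. Nothing is read from these shares for the members, and their p-values in this split are given as descriptions. The members were chosen with earlier results of these data known, and the 5 include Cdkn2a and Cdkn2b, which did not fall in wildtype libraries. Among all called genes 38.0% were higher, and this share was 45.7% with RLE size factors and 48.0% with DESeq2.

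Cdkn2c was above its level in Mki67-negative cells in 9 of 9 wildtype libraries and in both tumours. It measured 143 CPM in Mki67-positive cells of puberty, against 9.95 CPM in the others, and 142 against 14.8 CPM in pregnancy. In lactation, with 26 positive cells, it measured 25.6 against 25.4 CPM, so that there was no difference to see. In the tumours it measured 65.4 against 16.7 CPM and 53.5 against 20.97 CPM. The same split over Top2a, another gene of cycling cells, gave log2 2.15.

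Other genes of the fixed lists were read in the same split. Of 29 p53 target genes tested, 15 were lower, against 23.3% of all genes, and 3 higher, against 14.3%, in Mki67-positive cells, with a median of log2 -0.37 against -0.11. The 3 higher ones were the spindle genes Ckap2, Gtse1 and Psrc1 named above (log2 5.18, 4.56 and 2.30), and Trp53inp1 (log2 -1.25), Dcxr (-1.19), Zmat3 (-0.62) and Sesn2 (-0.60) were the furthest below 0. Of 6 other inhibitors and pocket proteins, 3 were higher and 1 lower. Cdkn3 (log2 6.32), Rbl1 (2.26) and Cdkn2d (2.21), which encodes the INK4 protein p19INK4d, were higher and Cdkn1c was lower (log2 -0.89). Of 13 repressors of the Ink4 locus, 2 were higher and 3 lower, which is near the background. The Polycomb genes Ezh2 (log2 1.92) and Suz12 (0.83) were higher and Cbx7 (-1.39), Ezh1 (-0.75) and Ring1 (-0.52) lower. All of these passed at an adjusted p of at most 0.0071 by edgeR.

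In the tumours Cdkn1a, Cdkn2a, Cdkn2b, Mdm2 and Ccng1 were all lower in Mki67-positive cells. In wildtype libraries Cdkn1a was lower in 8 of 9, with a median ratio of 0.893. Cdkn2a and Cdkn2b were each higher in 5 of these and lower in 4, with ratios of 0 to 29.7 and 0 to 3.60. Cdkn1a measured 204 CPM in Mki67-positive cells of tumour 1 against 603 CPM in its other fibroblasts, and 119 against 435 CPM in tumour 2. Cdkn2a measured 26.8 against 116 CPM and 33.2 against 114 CPM, and Cdkn2b 26.2 against 73.8 CPM and 36.8 against 115 CPM. Mdm2 and Ccng1 were between 0.51 and 0.58 times the level of the other cells in both tumours. After thinning, 3.36% (binomial interval by Wilson's method 1.93 to 5.78) and 3.22% (1.93 to 5.33) of Mki67-positive tumour cells had a Cdkn2a UMI, against 13.004% and 16.4% of the others. Median UMIs per cell were 18113 and 27481 in Mki67-positive and 10632 and 19571.5 in other tumour cells, so that positive cells were the deeper ones.

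The difference between tumours and wildtype libraries in this split was tested as an interaction (edgeR), a test added after seeing the data. Cdkn1a was at log2 -0.45 in wildtype and -1.79 in tumours (adjusted p of the difference 0.0033), Mdm2 at -0.20 and -0.92 (adjusted p = 0.017), Cdkn2b at 0.10 and -1.65 (adjusted p = 0.029) and Cdkn2a at 1.99 and -2.02 (adjusted p = 0.0020). Ccng1 (-0.31 and -0.95, adjusted p = 0.057), Cdkn2c (2.48 and 1.58, adjusted p = 0.33), Cdkn1b and Trp53 did not pass this test. Thus 4 of 8 members differed, all lower in tumours. Among all genes 1.34% differed and 1.09% were lower in tumours. Nothing is read for the members from these shares, and their adjusted p-values here are descriptions and no independent evidence. The members were chosen with their tumour levels known, and the study had listed these 4 as markers of a tumour cluster. Of 29 other p53 target genes 6 differed, all lower in tumours, led by Psrc1 (log2 3.86 in wildtype and -0.47 in tumours, adjusted p = 6.2e-07 by edgeR) and Gtse1 (5.52 and 2.51, adjusted p = 0.00095). The wildtype value of Cdkn2a rests on 21 UMIs in 583 cells, of which 8 were in MPA+E 2 and 6 in pregnancy, and puberty, lactation and MPA+E 1 had 0, which allows up to 3 UMIs each. Without tumour 2 the differences of Cdkn1a (adjusted p = 0.25), Cdkn2b (0.38) and Mdm2 (0.51) were no longer called by edgeR, and the count of all genes was 19 in place of 181. Without tumour 1 it was 47, and Cdkn1a and Cdkn2a passed while Cdkn2b (adjusted p = 0.11) and Mdm2 (0.21) did not. The difference of Cdkn2b was also lost without puberty, pregnancy or either MPA+E library, at an adjusted p by edgeR of 0.059, 0.10, 0.061 and 0.072. For the pooled Cdkn2a value, DESeq2 on the same 11 libraries gave log2 0.82 (adjusted p = 0.42) and the wildtype libraries alone gave log2 2.06 by edgeR, so the direction of the pooled value depended on the method.

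**Figure D3:**
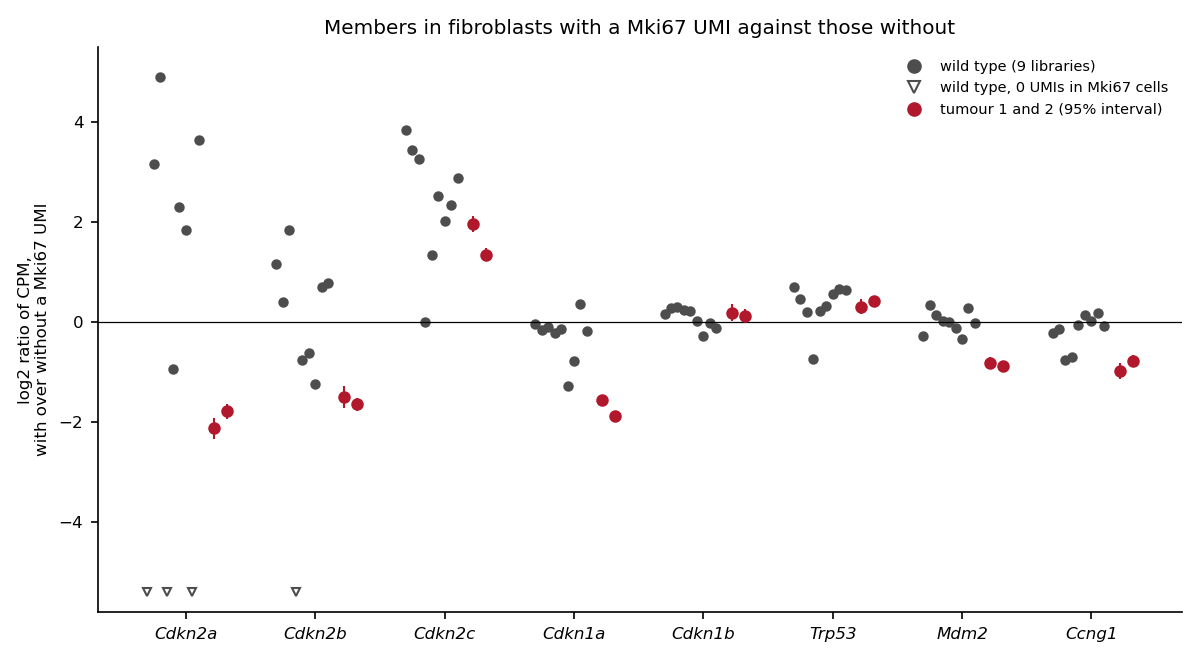
Log2 ratio of CPM in Mki67-positive to Mki67-negative fibroblasts for each gene in 9 wildtype libraries (grey) and 2 tumours (red, with 95% conditional intervals as bars), where open triangles at the bottom mark wildtype libraries with 0 UMIs in positive cells. Cdkn2c lies above 0 in both tumours and all wildtype libraries, in lactation only just, and Cdkn2a, Cdkn2b, Cdkn1a, Mdm2 and Ccng1 lie below 0 in both tumours, at ratios between 0.23 and 0.58.

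Acta2, the smooth muscle actin of myofibroblasts, was used in the same way. It had a UMI in 2541 of 8917 fibroblasts of tumour 1 and in 2770 of 4236 of tumour 2, but in only 23 and 81 in hyperplasia. The 9 wildtype libraries held 3429 such cells, 1221 of them in pregnancy. Cdkn2a was higher in the Acta2-positive cells of 7 wildtype libraries and lower in 2, with a median ratio of 3.25 on 49 UMIs. In hyperplasia its ratios were 0.649 and 1.01, on 5 UMIs. With 2 tumours the tumour ratios that follow are a description. Cdkn2a measured 217 CPM in Acta2-positive and 49.6 CPM in Acta2-negative cells of tumour 1 (4.37 times, interval 4.20 to 4.56), and 113 and 75.6 CPM in tumour 2 (1.49 times, 1.42 to 1.57). Cdkn2b was 3.64 and 1.58 times higher and Ccng1 1.83 and 1.12 times. For these 3 members the interval lay above 1 in both tumours, against 22.5% of 9603 genes (37.8% in tumour 1 and 29.8% in tumour 2). Nothing is read from these shares for the members, which were chosen with the tumour pattern known. No member was at least 2 fold higher in both tumours, against 0.427% of genes, and none was at least 2 fold lower, against 1.42%. Cdkn1a and Mdm2 went opposite ways, at 1.89 and 1.94 times in tumour 1 and 0.823 and 0.929 times in tumour 2, and Mdm2 in tumour 2 was at 1.00 with a fibroblast score of at least 100.

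The level of Acta2 itself was also graded. From 0 over under 2 and 2 to 10 to at least 10 Acta2 UMIs per 10000, Cdkn2a in tumour 1 measured 49.6, 128, 247 and 376 CPM, and Cdkn1a 435, 642, 911 and 1099 CPM. Mdm2 (118 to 293 CPM) and Ccng1 (70.4 to 170 CPM) rose in step there. In tumour 2 Cdkn2a measured 75.6, 102, 108 and 131 CPM in the same classes and Cdkn1a 449, 394, 353 and 360 CPM. Mdm2 measured 142, 134, 125 and 137 CPM there and Ccng1 75.2, 78.8, 84.8 and 90.3 CPM. These 4 members thus rose from class to class in tumour 1, whereas in tumour 2 Cdkn2a and Ccng1 rose by less and Cdkn1a and Mdm2 were below their first class in all others. Mki67-positive cells did not lack Acta2, which measured 208 CPM in them against 229 in the other cells of tumour 1 and 784 against 683 in tumour 2.

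**Figure D4:**
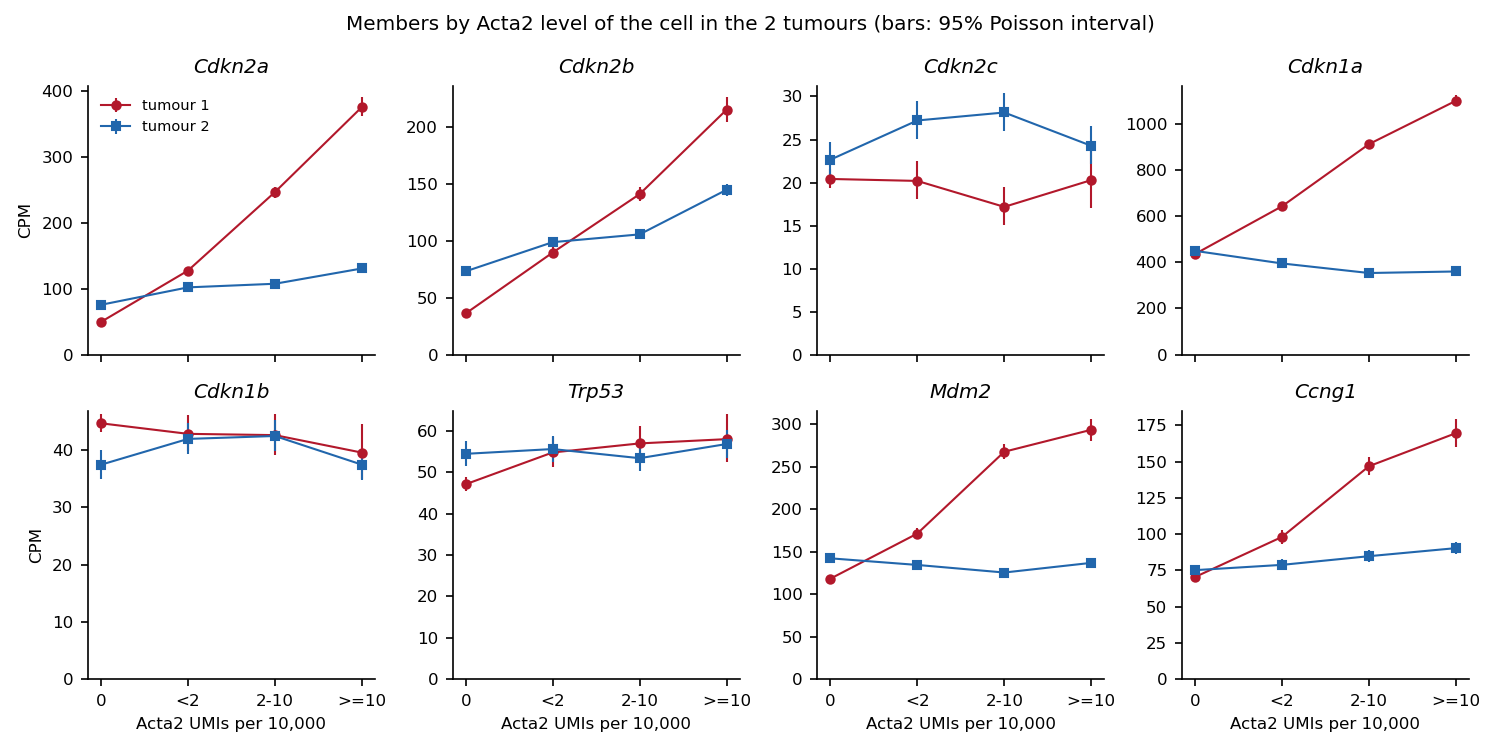
CPM of the members in tumour fibroblasts grouped by Acta2 UMIs per 10000, with 95% Poisson intervals as bars. Cdkn2a climbs from 49.6 to 376 CPM in tumour 1 and from 75.6 to 131 CPM in tumour 2, and Cdkn1a climbs in tumour 1 only.

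Whether the genes were found in the same cells was counted after thinning, as the number of cells with a UMI of both genes over the number expected if they were independent within a library. Cdkn2a and Cdkn2b were found together 3.42 times as often as independence gives in tumour 1 (408 cells) and 2.54 times in tumour 2 (248 cells). On few cells, this was not particular to tumours. The pair was at 3.32 and 5.40 in hyperplasia (5 and 10 cells). Involution had 5 such cells against 0.836 expected, and the other wildtype libraries 0 to 2. Of the tumour cells with a Cdkn2a UMI, 84.2% and 71.3% also had one of Cdkn1a, against 36.1% and 28.1% of the cells without (ratios of 2.00 and 2.06). The same pair was at 1.11 to 1.25 in the 3 other libraries with at least 20 expected cells. In the tumours Cdkn2a with Mdm2 was at 2.40 and 1.62, and with Ccng1 at 2.43 and 1.89. In hyperplasia Cdkn2a with Mdm2 was at 1.68 and 1.46 (17 and 12 cells), and with Ccng1 at 0.849 and 1.73 (3 and 7 cells). The p53 targets were found together as well, with 1.59 and 1.63 for Cdkn1a and Mdm2 in the tumours against 1.03 to 1.23 in the other 11 libraries, and 1.86 and 1.57 for Mdm2 and Ccng1 against 0.938 to 1.27. Trp53, Cdkn1b and Cdkn2c stood apart, with ratios of 0.81 to 1.25 to any member in the tumours. All pairs share the cells of 2 mice, so these are descriptions of 2 tumours.

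**Figure D5:**
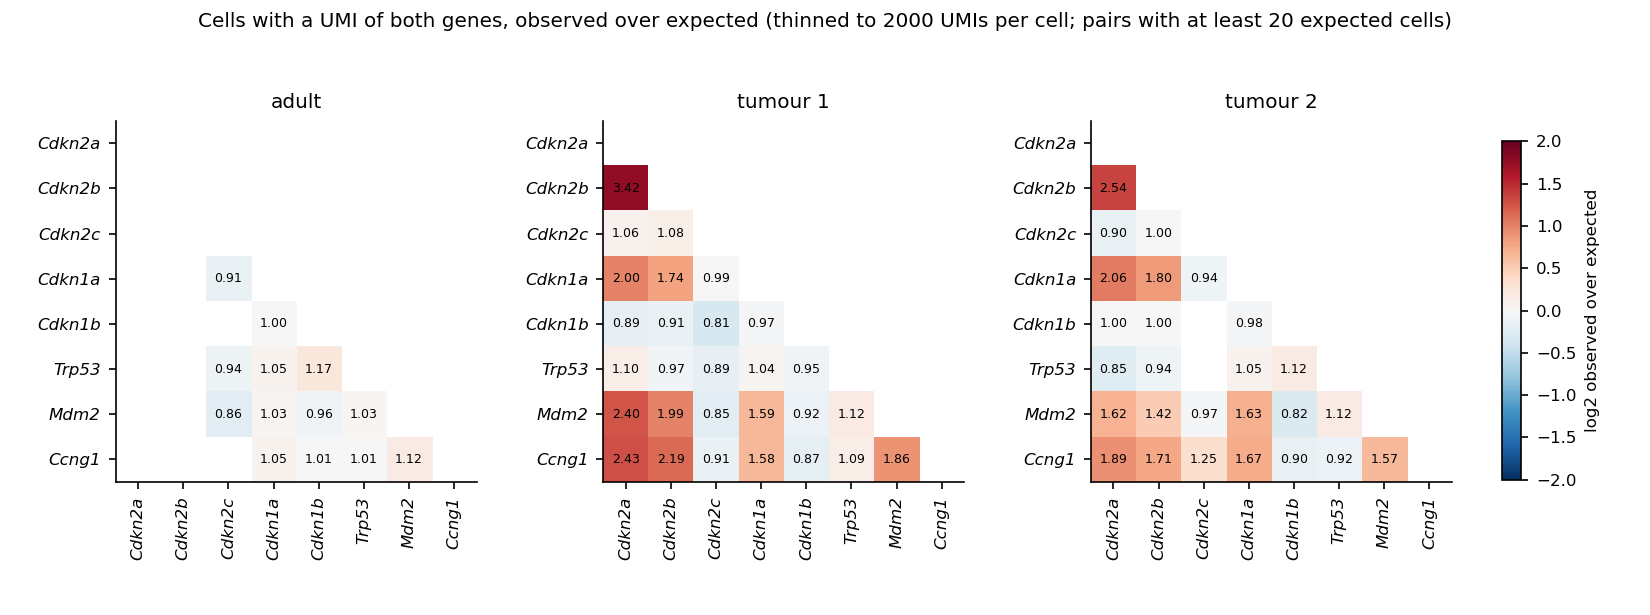
Cells with a UMI of both genes, as observed over expected, in the adult library and both tumours at 2000 UMIs per cell, with the ratio printed for pairs with at least 20 expected cells. The pairs of Cdkn2a, Cdkn2b, Cdkn1a, Mdm2 and Ccng1 are at 1.42 to 3.42 in the tumours, and the adult pairs shown are at 0.86 to 1.17.

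The genes most like each member over the 13 libraries were read from Pearson's r of log2(CPM + 1) among 9649 genes with a mean of at least 5 CPM. Nearest to Cdkn2a were Ass1 (r = 0.984), Rasl11a (0.976) and Myo1d (0.975), and nearest to Cdkn2b were Cdk6 (0.979), Fmnl3 (0.979) and Tgfb1 (0.977). Nearest to Ccng1 were Zmat3 (0.979), another p53 target, H2afj (0.976) and Hs6st2 (0.964), and nearest to Mdm2 were Pakap, Pqlc1 and Slc20a1. Cdkn1b was nearest to Rgmb (0.947), Washc4 and Usf3, and Cdkn2c to Purg (0.896), B3glct and Lrig1. Cdkn1a was nearest to Rarb (0.773), Gadd45a (0.767), a p53 target, and Ikzf4, and Trp53 to Nab2 (0.789), Gspt1 and Hccs, all weaker than for the other members. For Cdkn2a, Cdkn2b, Mdm2 and Ccng1 both tumours lie above the other 11 libraries, and r was not computed without them. The libraries differ in depth, strain and sort, which all these values share.

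Barcodes left out of the fibroblasts gave a further check on where the tumour signal lay. Those with an Epcam UMI had 33.6 CPM of Cdkn2a in tumour 1 (46 cells, 28 UMIs) and 5.35 CPM in tumour 2 (242 cells, 14 UMIs), below the fibroblasts' 110 and 103 CPM, with 12339 and 9902 median UMIs per cell against 10824 and 20256. At 2000 UMIs 8.70% and 1.26% of these barcodes had a Cdkn2a UMI, against 12.6% and 14.98% of fibroblasts. In the other 11 libraries the Epcam-positive barcodes of this kind held 1 Cdkn2a UMI in all. Barcodes of this kind with an Rgs5 UMI in tumours (4 and 8 cells) had 86.3 and 201 CPM of Cdkn2a, on 4 and 38 UMIs.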

How the data were processed

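Mouse mammary stromal cells were profiled by droplet single-cell RNA sequencing (10x 3′ v3). The authors deposited raw UMI counts per gene and barcode, as filtered matrices of Cell Ranger 6.1.2 on mm10 per the submitters' processing notes. The annotation release is not given in the sources used here. No normalization had been applied, and no doublets were removed here beyond the limit of 7500 genes except in an alternative. Because cells are not replicates, UMI counts were summed per library over fibroblast barcodes.

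Placebo and MPA+E were compared by the quasi-likelihood test of edgeR 4.0.16 on TMM-scaled counts of genes kept by filterByExpr, and tumour, hyperplasia and normal tissue with limma-voom (limma 3.58.1) in 1 fit, as in the study's methods. Mki67-positive and Mki67-negative sums were compared with edgeR and the library as a block. P-values were Benjamini-Hochberg adjusted over all genes tested, and 0.05 was the threshold. Where 2 libraries of a group come from pooled mice or from 2 mice, p-values measure the spread between those libraries. In the limma fit the normal group joined the puberty and the adult library, so their difference in stage also enters that spread. Stages and the Acta2 split had no test. Per the labels a hyperplasia and a tumour library with 1 number share a mouse, which pairs them, and deviations from the group means correlated at 0.0954 over 16001 genes between libraries of a mouse. The main fit did not use this pairing, which entered only as an alternative.

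The members and the gene lists were chosen with earlier results of these data known. Named in the text are all 8 members, in each list and comparison at most the 4 called genes with the largest change in each direction, and for each member the 3 genes with the highest correlation over the 13 libraries. A few genes of the p53 target list that did not pass (Ddb2, Sesn1, Xpc and Btg2) were named after their values were seen, as were Lmnb1, Hmgb1 and Hmgb2 of the senescence-linked list. The lists held 110 genes: other inhibitors and pocket proteins, cyclins and kinases, p53 targets, p53 regulators, repressors of the Ink4 locus, proliferation, senescence-linked and contractile genes. The alternatives tried were DESeq2 1.42.0, RLE size factors, no filter on low counts, a fibroblast score of at least 100, at most 5% mitochondrial UMIs, removal of Scrublet doublets (scanpy 1.11.5), all passing barcodes, removal of cycling cells, a replicate block and each library left out. On simulated counts the tests for MPA+E, tumour, hyperplasia and the Mki67 split recovered 88%, 87%, 84% and 100% of genes changed 2 fold. In the same order they covered 15614, 16095, 16076 and 14121 genes and gave 12, 10, 12 and 21 false calls. The share recovered at the spread between the deposited libraries was not tested. Gene positions are from GENCODE M21 (GRCm38).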

Additional observations from a re-analysis of the deposited data

Results flagged for a closer look

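In the split by a Mki67 UMI, the difference between Mki67-positive and Mki67-negative fibroblasts itself differed between tumours and wildtype libraries for 4 members, by a test of that difference that was chosen after seeing the data. The tumour value minus the wildtype value was -4.00 for Cdkn2a, -1.75 for Cdkn2b, -1.34 for Cdkn1a and -0.72 for Mdm2, on the log2 scale. Among all genes tested 1.34% differed. Nothing is read from this share, and the calls of the members are no independent evidence, since the members were chosen with their tumour levels known. The calls of Cdkn2b, Cdkn1a and Mdm2 were each lost with some library left out. That of Cdkn2a was not, but its wildtype side rests on 21 UMIs in 583 Mki67-positive cells. It was higher in these cells in 5 wildtype libraries and lower in 4.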

How the results depend on the processing

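The 2 libraries in each replicated group limit every test, and most counts of genes depend on which are present. The count for MPA+E against placebo (678) was 1358 with DESeq2 and ranged from 22 to 900 with a library left out. Placebo and MPA+E libraries share only a replicate number (deviations correlated at 0.396), and with a replicate block the count was 2451, with Cdkn2b, Cdkn2c and Cdkn1a past the threshold. The same block, by mouse, gave 4837 genes for tumour against hyperplasia (4777) and changed no other call of a member. With a library left out, that count ranged from 242 to 7120, that for hyperplasia against normal tissue (2280) from 1 to 183, that for the tumour difference in the Mki67 split (181) from 19 to 243, and the p53 targets higher in tumours (15) from 2 to 17. With all 9 wildtype libraries as normal tissue, 842 genes were called.

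Some member values changed sign under other settings. In the Mki67 split Cdkn2a was at 0.82 with DESeq2 (adjusted p = 0.42) and at 2.06 in wildtype libraries (adjusted p = 0.0070, edgeR), Cdkn2b at 0.13 in wildtype libraries and Cdkn1b at 0.085 over all passing barcodes. Cdkn2c in hyperplasia was at -0.19 against 9 wildtype libraries, and Mdm2 in the Acta2 split of tumour 2 was at 1.00. With a library left out, the values for MPA+E ranged around 0 for Cdkn1a (-1.24 to 0.37), Mdm2 (-0.69 to 0.41), Cdkn1b (-0.064 to 0.25), Cdkn2a (-0.90 to 0.066) and Trp53 (-0.087 to 0.018), as did those of Cdkn1b (-0.21 to 0.010) and Trp53 (-0.031 to 0.15) in tumours, Trp53 in hyperplasia (-0.0062 to 0.18) and the tumour difference of Trp53 in the Mki67 split (-0.020 to 0.093). The cause was not tested.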
